A study of Mus musculus with 10 samples.

Results

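The genes described are the 9 members of the MHC class II pathway of the mouse: the class II chains H2-Aa, H2-Ab1 and H2-Eb1, the invariant chain Cd74, the peptide loading genes H2-DMa, H2-DMb1, H2-DMb2 and H2-Oa, and the transactivator Ciita. They were taken by symbol from a table of 28871 genes, and all 9 had a row and passed the filter on low counts. The pathway was chosen by the difference in these same counts between the treatments, so the differences below are a description and support nothing beyond themselves.

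Samples were whole hippocampi of wild-type male C57BL/6J mice aged 2 months. In 5 samples (Visudyne 3, 6, 9, 12 and 15) Visudyne, a formulation of the photosensitizer verteporfin, had been given into the cisterna magna and activated with red light of 689 nm through the skull, which damages the lymphatic vessels of the meninges. In 5 samples (vehicle 1, 4, 7, 10 and 13) vehicle was given in its place, with the same light of 689 nm listed. In both groups the procedure was carried out again after 2 weeks, and tissue was taken 2 weeks after the last one. The labels do not say that each sample is a single animal, so p-values measure the spread between these samples, which may be technical.

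Class II molecules are heterodimers of an alpha and a beta chain that show peptides from engulfed proteins to CD4+ T cells. The invariant chain fills their groove during assembly and guides them to endosomes, where H2-DM exchanges its remnant for peptide and H2-O restrains H2-DM. Transcription is switched on by CIITA, which docks on RFX, CREB and NF-Y proteins bound to X and Y boxes upstream of each gene. In the healthy brain class II is found chiefly on macrophages and dendritic cells of the borders (meninges, choroid plexus and perivascular spaces) and little on resting microglia. Mice of the H2-b haplotype, such as C57BL/6, lack a working alpha chain for I-E, so H2-Eb1 mRNA in them gives no surface molecule.

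The boxes can be read in the promoters of the chain and loading genes, shown here because they are the sequence on which CIITA acts. RefSeq promoter windows (GRCm38.p6, 250 bases before to 50 after the start) were matched for 6 of the 9 members, H2-Aa, H2-Eb1, H2-DMa, H2-DMb1, H2-DMb2 and H2-Oa, and for the related H2-Ob and H2-Eb2. Each stretch below is written 5′ to 3′ on the strand of its gene, with the letters of the Y box core (TGATTGG) and, where found ahead of it, of the X box core (GCAAC) in capitals. The stretches are chr17:34287859-34287921 (minus strand), chr17:34305758-34305820, chr17:34092286-34092348, chr17:34145109-34145171 and chr17:34238798-34238860 (plus strand).
H2-Aa: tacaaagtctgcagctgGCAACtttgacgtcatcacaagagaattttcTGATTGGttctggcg
H2-Eb1: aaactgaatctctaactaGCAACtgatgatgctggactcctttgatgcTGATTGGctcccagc
H2-Oa: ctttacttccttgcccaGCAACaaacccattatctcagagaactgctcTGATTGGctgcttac
H2-DMb2: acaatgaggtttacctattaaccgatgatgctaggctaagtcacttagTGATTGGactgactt
H2-Ob: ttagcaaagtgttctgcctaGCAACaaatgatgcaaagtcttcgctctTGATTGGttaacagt

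In H2-Aa and H2-Oa the gap between the motifs was 26 bases, in H2-Eb1 25 bases and in H2-Ob 23 bases. GCAAC followed after 15 to 35 bases by TGATTGG, searched on both strands, stood in the windows of 5 of the 8 matched genes (H2-Eb2 is the fifth) and in 0.204% of all 32851 promoter windows of this length. TGATTGG alone stood in 7.82% of all windows and GCAAC alone in 35.2%, and neither of the 2 windows of H2-DMa held TGATTGG. The window of H2-Aa also held TGACGTCA, a CREB motif present in 1.79% of all windows, between the other motifs. H2-DMb1 and H2-DMb2 held TGATTGG without GCAAC at that distance. The letters were chosen with these sequences in view, and a match is not evidence of binding.

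Of the members, the chains and the invariant chain measured higher in Visudyne samples, while the loading genes differed little. Values are CPM, the counts scaled to the TMM-adjusted library total, and fold changes are Visudyne over vehicle from edgeR's quasi-likelihood fit over 19093 genes. None of the 9 members passed at an adjusted p under 0.05 over all genes (edgeR adjusted p = 0.9999 for each), where 4 genes, or 0.021% of those tested, passed as higher. At an unadjusted p under 0.05 there were 3 members (Cd74, H2-Eb1 and H2-Ab1), against 325 of all genes tested, or 1.7%, in either direction. Since the members were chosen by this contrast, nothing is read from these counts. DESeq2 and limma voom also called 0 of the 9. The median log2 fold change of the members was 0.41, against 0.0022 over all genes tested, and 8 of 9 were positive.

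Cd74, the invariant chain (ENSMUSG00000024610, chromosome 18, 60803848 to 60812652, plus strand, mm10), measured 4.34, 5.10, 4.24, 3.35 and 3.35 CPM in Visudyne 3, 6, 9, 12 and 15, against 3.10, 2.24, 0.814, 1.07 and 0.539 CPM in vehicle 1, 4, 7, 10 and 13. The lowest Visudyne sample lay just above vehicle 1, and the groups did not overlap. The means were 4.08 ± 0.743 CPM in Visudyne and 1.55 ± 1.08 CPM in vehicle samples (SD, n = 5 each), a 2.62-fold difference (log2 fold change 1.39, SE 0.38).

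H2-Eb1, the beta chain of I-E (ENSMUSG00000060586, chromosome 17, 34305867 to 34316674, plus strand), measured 1.69, 2.22, 1.23, 1.496 and 1.29 CPM in Visudyne 3, 6, 9, 12 and 15, against 1.10, 0.869, 0.536, 0.613 and 0.333 CPM in vehicle 1, 4, 7, 10 and 13. Here too the lowest Visudyne sample, Visudyne 9, exceeded the highest vehicle sample, vehicle 1. The means were 1.59 ± 0.397 CPM in Visudyne and 0.691 ± 0.300 CPM in vehicle samples (log2 fold change 1.20, SE 0.29). Of the 9 members Cd74 and H2-Eb1 did not overlap between the groups. Over all genes tested, 61 lay above in this way, or 0.319%.

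H2-Ab1, the beta chain of I-A (ENSMUSG00000073421, chromosome 17, 34257689 to 34269419, plus strand), measured 1.30, 1.66, 0.810, 1.03 and 1.26 CPM in Visudyne 3, 6, 9, 12 and 15, against 0.959, 0.812, 0.298, 0.336 and 0.143 CPM in vehicle 1, 4, 7, 10 and 13. Vehicle 1 and vehicle 4 lay above Visudyne 9, the lowest of its group, so that the groups overlapped. The log2 fold change was 1.24 (SE 0.42).

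H2-Aa, the alpha chain that pairs with it (ENSMUSG00000036594, chromosome 17, 34282744 to 34287823, minus strand), measured 2.30, 2.41, 1.96, 1.70 and 1.90 CPM in Visudyne 3, 6, 9, 12 and 15, against 2.08, 1.66, 0.377, 0.573 and 0.127 CPM in vehicle 1, 4, 7, 10 and 13. Vehicle 1 exceeded 3 Visudyne samples, and vehicle 13 rested on 8 counts. The log2 fold change was 1.09 (SE 0.52).

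Beside the shift between groups, these 4 genes differed in spread relative to the mean. The coefficient of variation of CPM was 14.4% to 26.3% in Visudyne samples and 43.4% to 88.8% in vehicle samples, whose means were lower. The SD itself was not larger in vehicle samples for every gene. For H2-Eb1 it was 0.397 CPM in Visudyne and 0.300 CPM in vehicle samples, and for H2-Ab1 0.318 and 0.354 CPM. In H2-Aa the highest sample held 1.42 times the lowest in the Visudyne group and 16.4 times the lowest in the vehicle group. In each of the 4 genes the vehicle samples had the same order, from vehicle 1 through 4, 10 and 7 down to vehicle 13, and Visudyne 6 and then Visudyne 3 were highest. Summed over the 4 genes, CPM was 9.62, 11.4, 8.24, 7.57 and 7.79 in Visudyne 3, 6, 9, 12 and 15, against 7.24, 5.58, 2.03, 2.59 and 1.14 in vehicle 1, 4, 7, 10 and 13. Vehicle 1 and vehicle 4 therefore stood closer to the Visudyne samples than to the other 3 vehicle samples. They also carry the lowest sample numbers of their group in the titles. Among Visudyne samples too the lowest numbers, 3 and 6, had the highest sums, at 9.62 and 11.4 CPM. The labels do not say what the number stands for. With it as a covariate the log2 fold change of Cd74 was 1.82 and that of H2-Eb1 1.44.

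Between the groups, the mean proportions among the 4 genes differed less than their levels. H2-Aa stood at 0.508 ± 0.043 of the CPM of Cd74 in Visudyne and 0.529 ± 0.197 in vehicle samples, and H2-Ab1 at 0.299 ± 0.0673 in Visudyne and 0.323 ± 0.0419 in vehicle samples (SD, n = 5 each). H2-Eb1 stood at 0.389 ± 0.0612 of Cd74 in Visudyne and 0.519 ± 0.138 in vehicle samples. Its ratio was highest in vehicle 7, 10 and 13, at 0.659, 0.574 and 0.618, where the levels of both genes were lowest. The ratio of H2-Aa was instead highest in vehicle 1 and 4, at 0.67 and 0.741, against 0.462 to 0.568 in Visudyne samples. It was lowest in vehicle 13, at 0.235, where H2-Aa rested on 8 counts. These ratios were not tested.

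**Figure D1:**
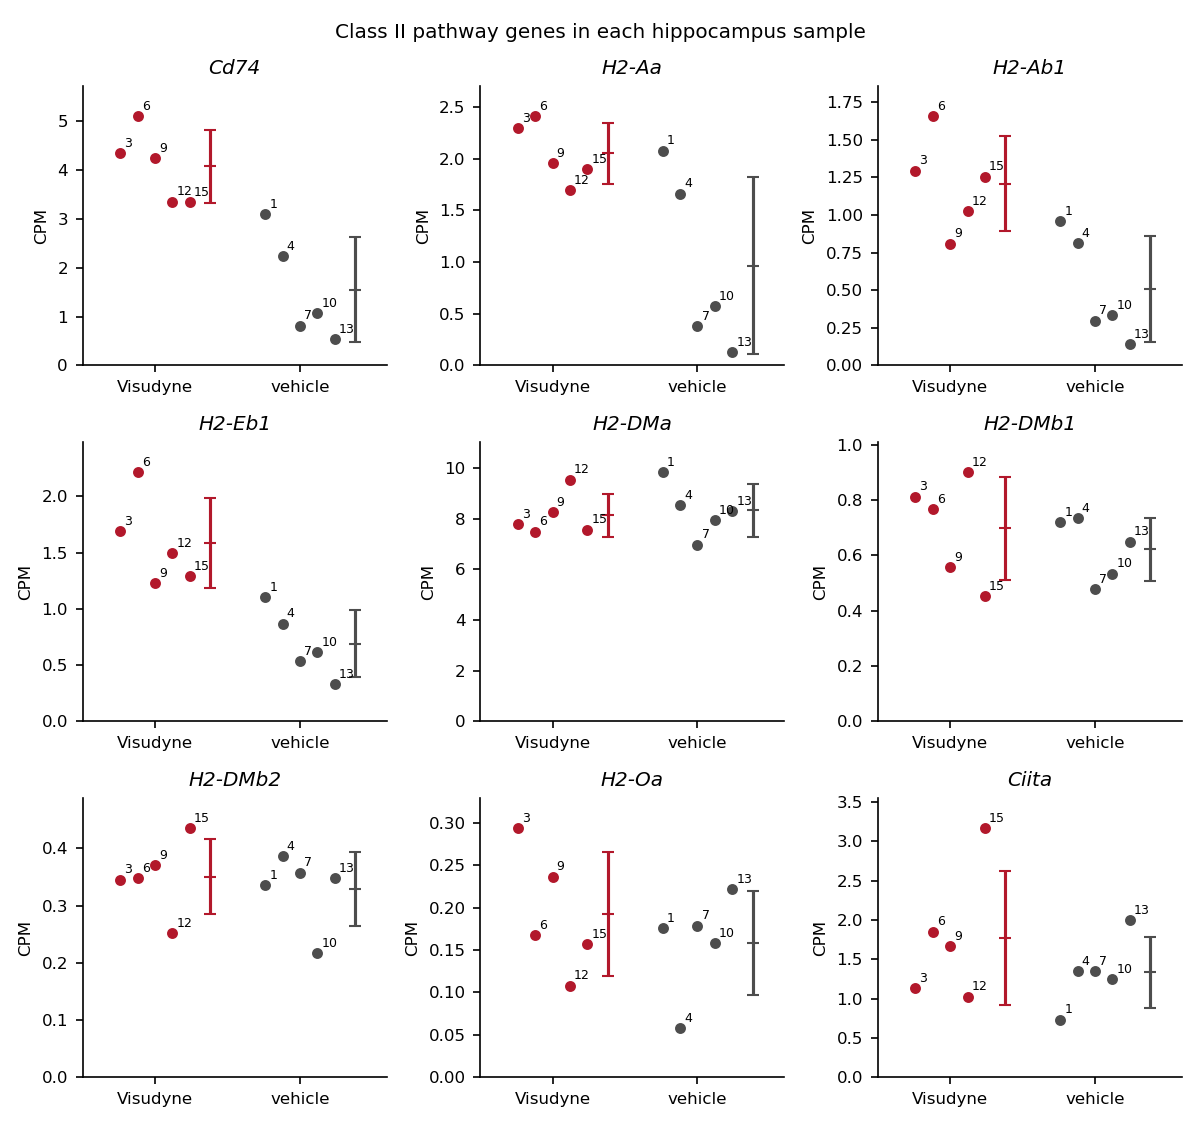
CPM of the 9 class II pathway genes in each sample, Visudyne left and vehicle right in each panel, with sample numbers beside the points and bars for the mean ± SD (n = 5 each). Cd74 and H2-Eb1 do not overlap between groups, vehicle 1 and 4 stand above vehicle 7, 10 and 13 in Cd74, H2-Aa, H2-Ab1 and H2-Eb1, and the other 5 genes overlap throughout.

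The loading genes did not share this pattern. H2-DMa, the alpha chain of H2-DM (ENSMUSG00000037649, chromosome 17, 34119541 to 34139101, plus strand), measured 7.79, 7.49, 8.25, 9.54 and 7.56 CPM in Visudyne 3, 6, 9, 12 and 15, against 9.84, 8.54, 6.97, 7.95 and 8.30 CPM in vehicle 1, 4, 7, 10 and 13. Its groups overlapped throughout, and its log2 fold change was -0.04 (SE 0.10), which turned to 0.03 without vehicle 1. Of its 31-base words, 9.23% also occur in transcripts of Brd2, a chromatin reader on the opposite strand of the same place, so some reads may be shared.

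H2-DMb1 (ENSMUSG00000079547, chromosome 17, 34153072 to 34160230, plus strand), a beta chain of H2-DM, measured 0.698 ± 0.186 CPM in Visudyne and 0.623 ± 0.114 CPM in vehicle samples, with ranges of 0.453 to 0.901 CPM in Visudyne and 0.477 to 0.734 CPM in vehicle samples (log2 fold change 0.16, SE 0.23). H2-DMb2 (ENSMUSG00000037548, chromosome 17, 34143307 to 34151555, plus strand), the neighbouring copy, measured 0.351 ± 0.0658 CPM in Visudyne and 0.329 ± 0.0652 CPM in vehicle samples (0.09, SE 0.24). The value for H2-DMb2 turned to -0.02 without vehicle 10 and to -0.00077 without Visudyne 15. Of the 31-base words of H2-DMb1, 31.4% occur in H2-DMb2, so the division of reads between the copies is uncertain. For the other chains and Cd74 the share of words found in any other gene was 0.267% to 1.41%.

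H2-Oa, the alpha chain of the H2-DM inhibitor H2-O (ENSMUSG00000024334, chromosome 17, 34092340 to 34095234, plus strand), rested on 6 to 17 counts in Visudyne and 3 to 14 counts in vehicle samples. Its mean was 0.193 ± 0.0728 CPM in Visudyne and 0.159 ± 0.0609 CPM in vehicle samples (log2 fold change 0.26, SE 0.38). Its groups overlapped, and differences of the size of this SE were not detectable at this depth. A share of 18.3% of its words also occurs in BC051537, an antisense transcript.

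Ciita, the transactivator (ENSMUSG00000022504, chromosome 16, 10480059 to 10528418, plus strand), measured 1.14, 1.86, 1.67, 1.03 and 3.17 CPM in Visudyne 3, 6, 9, 12 and 15, against 0.735, 1.35, 1.35, 1.245 and 1.996 CPM in vehicle 1, 4, 7, 10 and 13. The groups overlapped, and the log2 fold change of 0.41 (SE 0.32) was 0.09 without Visudyne 15, 0.25 without vehicle 1 and 0.61 without vehicle 13. The order of the samples was not that of the chain genes. Vehicle 13 was highest of its group in Ciita and lowest in Cd74, H2-Aa, H2-Ab1 and H2-Eb1, and vehicle 1 was the reverse.

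Compared per kilobase of exon, mean levels in Visudyne samples were highest for Cd74 (2.43 ± 0.442 CPM per kb) and H2-DMa (2.36 ± 0.245 CPM per kb), of which Cd74 was higher in 3 of 5 samples. H2-Eb1 followed at 0.816 ± 0.204, then H2-Aa at 0.540 ± 0.0779, H2-Ab1 at 0.471 ± 0.124 and H2-DMb1 at 0.415 ± 0.111 CPM per kb. Within samples H2-Eb1 exceeded each of these 3 in 5 of 5, H2-Aa exceeded H2-Ab1 and H2-DMb1 in 4 of 5, and H2-Ab1 exceeded H2-DMb1 in 3 of 5. In vehicle samples H2-DMa stood first at 2.41 ± 0.301 CPM per kb and Cd74 second at 0.924 ± 0.644, lower in 5 of 5 samples. Next came H2-DMb1 (0.370 ± 0.0676), H2-Eb1 (0.355 ± 0.154), H2-Aa (0.254 ± 0.225) and H2-Ab1 (0.198 ± 0.138 CPM per kb). Within vehicle samples H2-Eb1 exceeded both H2-Aa and H2-Ab1 in 5 of 5, and H2-DMb1 exceeded H2-Ab1 in 5 of 5. The order of H2-DMb1 against H2-Eb1 and H2-Aa, and of H2-Aa against H2-Ab1, held in 3 of 5. By mean, H2-DMb2, Ciita and H2-Oa were lowest in both groups. They stood at 0.201, 0.186 and 0.137 CPM per kb in Visudyne and 0.188, 0.140 and 0.113 CPM per kb in vehicle samples. H2-Aa and H2-Ab1 each exceeded H2-DMb2, Ciita and H2-Oa in only 3 of 5 vehicle samples.

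The chain genes lie together, at the distal end of the 224.3 kb of chromosome 17 that runs from H2-Oa to H2-Eb1. Of 20 annotated genes there, 13 were tested, 7 of them members. The other 6 had log2 fold changes of -0.01 to 0.22. They were Brd2 (0.0052, SE 0.05), the immunoproteasome subunits Psmb9 (-0.01, SE 0.20) and Psmb8 (0.02, SE 0.12), the peptide transporter genes Tap1 (0.13, SE 0.11) and Tap2 (0.11, SE 0.08), and H2-Ob, the beta chain of H2-O (0.22, SE 0.29). H2-Ob, next to H2-Ab1, measured 0.347 ± 0.116 CPM in Visudyne and 0.297 ± 0.0764 CPM in vehicle samples. The antisense gene Gm20513, which overlaps H2-Eb1, measured 0.0475 ± 0.0459 CPM in Visudyne and 0.0503 ± 0.0304 CPM in vehicle samples, far below H2-Eb1 itself.

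**Figure D2:**
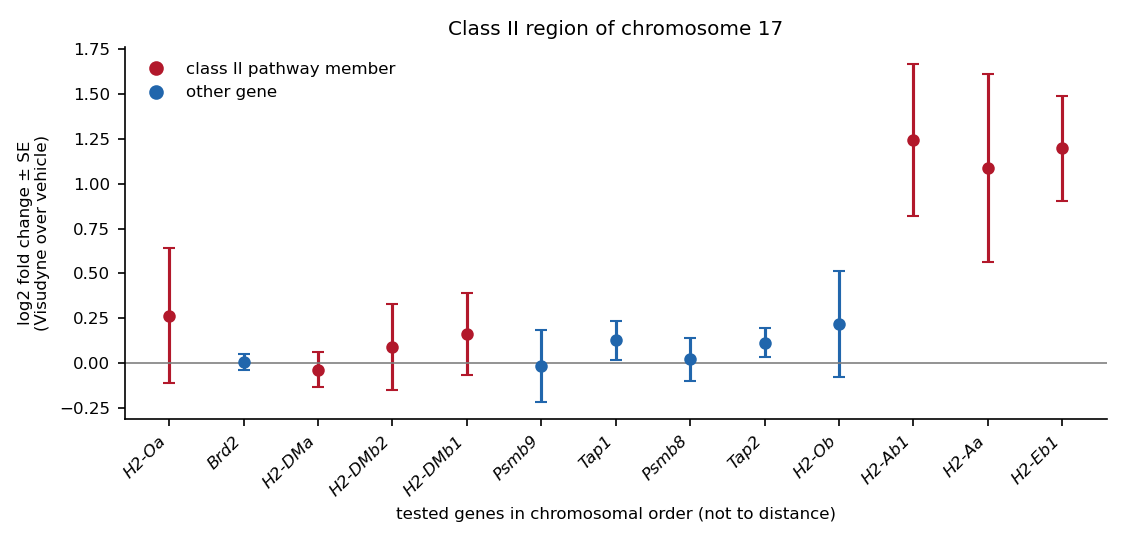
Log2 fold change ± SE (Visudyne over vehicle, edgeR, n = 5 each) of the 13 tested genes of the class II region of chromosome 17, in chromosomal order without distances. H2-Ab1, H2-Aa and H2-Eb1 stand at 1.09 to 1.24, and the 10 others between -0.04 and 0.26.

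Genes that act with class II were counted from 8 lists of 58 genes, of which 51 were tested. None passed over all genes by edgeR in either direction, 0 had an unadjusted p under 0.05, and DESeq2 and limma voom called 0 as well. Of all genes tested, 0.021% passed as higher and 1.7% had an unadjusted p under 0.05. At those shares few or no calls would be found in any 51 genes, so nothing is read from these counts. The median log2 fold change of the partner genes was 0.02, with 31 of 51 positive and a range of -0.31 to 0.44.

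In the transcription complex that carries CIITA, 5 of 10 genes were positive, with a median of -0.01. The NF-Y subunit gene Nfya measured 8.90 ± 0.903 CPM in Visudyne and 7.83 ± 0.739 CPM in vehicle samples (log2 fold change 0.18, SE 0.09), Nfyb -0.08 (SE 0.06) and the coactivator Crebbp 0.05 (SE 0.05). Of 9 genes of interferon gamma signalling, which induces Ciita, 7 were positive, with a median of 0.07. The receptor chain Ifngr1 had a log2 fold change of 0.10 (SE 0.08) and Irf8, a myeloid transcription factor, 0.14 (SE 0.10). Ifng itself was not analysed here.

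Endosomal processing genes had a median of 0.02 over 8 genes. Cathepsin S (Ctss), which trims the invariant chain, measured 41.7 ± 4.96 CPM in Visudyne and 39.9 ± 4.19 CPM in vehicle samples (log2 fold change 0.06, SE 0.09). The thiol reductase Ifi30 had 0.21 (SE 0.17) and the cathepsin inhibitor Cst3 0.09 (SE 0.08). Of 6 genes of traffic and turnover, with a median of -0.0068, the ubiquitin ligase Marchf1, which removes class II from the surface, had -0.03 (SE 0.06), Cd83, which opposes it, -0.05 (SE 0.10), and the adaptor subunit Ap1m1 0.04 (SE 0.05).

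Of the costimulatory and checkpoint ligands 5 of 6 were tested, with a median of 0.13. Cd86 measured 1.85 ± 0.146 CPM in Visudyne and 1.69 ± 0.171 CPM in vehicle samples (log2 fold change 0.13, SE 0.12), Cd80 had 0.30 (SE 0.34) and Cd274, the ligand of PD-1, -0.17 (SE 0.13). On the side of the T cell, Cd4 had -0.05 (SE 0.26) and Lag3, an inhibitory class II receptor, 0.13 (SE 0.13), and Cd28, Ctla4 and Icos did not pass the filter. Class I presentation had a median of 0.04 over 10 genes, with Tap1 and Tap2 as above and the loading factor Tapbp at 0.06 (SE 0.07).

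**Figure D3:**
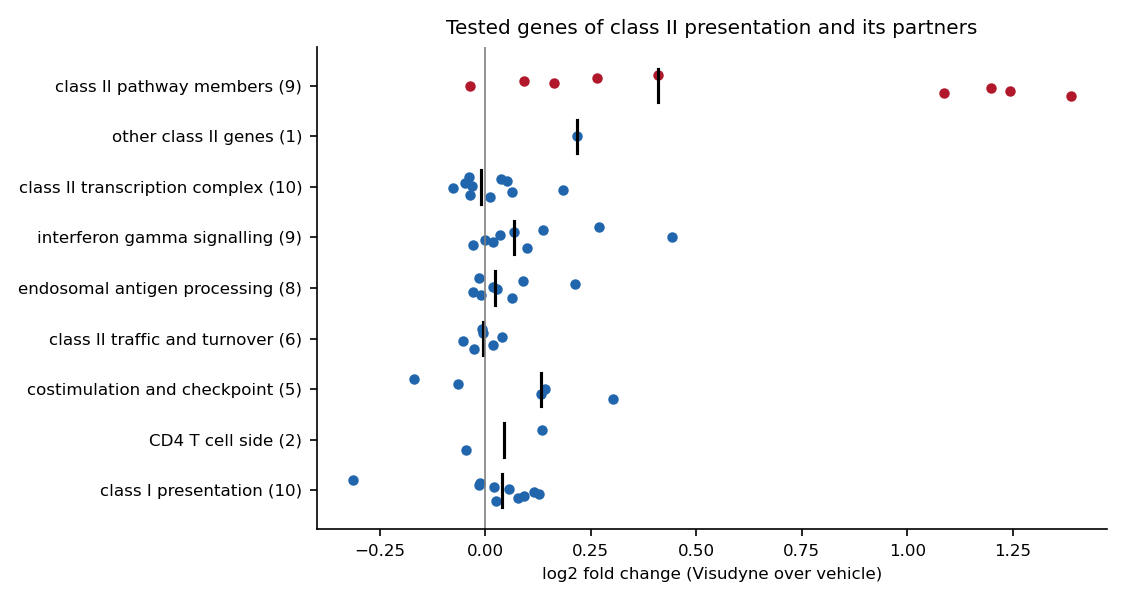
Log2 fold change (Visudyne over vehicle) of each tested gene, 1 point a gene, for the class II pathway members (top, red) and the 8 lists of partner genes (blue), with the number tested in brackets and a black bar at the median. The 4 points of Cd74, H2-Aa, H2-Ab1 and H2-Eb1 stand above 1, and all partner genes lie between -0.31 and 0.44.

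Markers of other cells were set beside the class II values. In bulk tissue, fewer cells of a type and less RNA per cell cannot be told apart. Of the 12 meningeal fibroblast markers, 11 were positive, 1 passed over all genes (Col1a1) and 4 did not overlap between groups. Of all genes tested, 0.021% passed as higher and 0.319% lay above without overlap. The list was chosen with earlier results of these data known, so these counts are a description. The summed level of the 12 markers was 137 to 170 CPM in Visudyne and 58.5 to 137 CPM in vehicle samples. Dcn alone held 30.5 to 54.9 CPM of it in Visudyne and 17.2 to 60.8 CPM in vehicle samples (log2 fold change 0.18, SE 0.29). The collagen gene Col1a2 measured 35.4, 33.8, 31.3, 29.8 and 29.4 CPM in Visudyne 3, 6, 9, 12 and 15, against 25.03, 25.5, 15.3, 16.9 and 10.5 CPM in vehicle 1, 4, 7, 10 and 13. Like the class II chains, it was higher in vehicle 1 and 4 than in vehicle 7, 10 and 13. The exporter gene Slc47a1 measured 1.74 and 2.49 CPM in vehicle 1 and 4 against 0.507 to 0.656 CPM in the other vehicle samples, and 3.61 to 5.01 CPM in Visudyne samples. Not every fibroblast marker followed this order. Dcn measured 43.7, 26.7, 42.0, 60.8 and 17.2 CPM in vehicle 1, 4, 7, 10 and 13. Lum was also highest of its group in vehicle 10, at 4.51 CPM. Slc6a13, Slc22a6 and Aldh1a2 followed it, with log2 fold changes between treatments of only 0.18, 0.15 and -0.05. The part of the meninges in the class II difference was not tested.

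Border macrophage markers, of which 7 of 9 tested were positive, summed to 22.6 to 32.8 CPM in Visudyne and 20.3 to 29.9 CPM in vehicle samples. The mannose receptor gene Mrc1 measured 7.05, 5.01, 3.83, 4.45 and 5.44 CPM in Visudyne 3, 6, 9, 12 and 15, against 6.63, 6.13, 3.595, 3.86 and 2.91 CPM in vehicle 1, 4, 7, 10 and 13 (log2 fold change 0.16, SE 0.23). It too was higher in vehicle 1 and 4 than in the other vehicle samples, while its groups overlapped. Of 7 monocyte markers only Ccr2 (0.60, SE 0.22) and Fn1 (0.64, SE 0.14), a matrix gene made by many cells, were tested, and Ly6c2 and Plac8 had at most 3 counts in any sample. Their sum, mostly Fn1, was 26.3 to 39.2 CPM in Visudyne and 16.4 to 26.6 CPM in vehicle samples, and without Fn1 it was 1.17 to 1.81 CPM in Visudyne and 0.672 to 1.21 CPM in vehicle samples. The part of these cells in the class II difference was not tested.

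Microglia markers were all tested and summed to 238 to 293 CPM in Visudyne and 234 to 290 CPM in vehicle samples, with a median log2 fold change of 0.04. Dendritic cell markers summed to 27.4 to 29.8 CPM in Visudyne and 27.03 to 28.7 CPM in vehicle samples (4 of 8 tested were positive). Siglech, which the microglia list also holds, made up 31.3% to 42.5% of this sum in Visudyne and 34.6% to 42.03% in vehicle samples. Without Siglech the sum was 15.7 to 20.5 CPM in Visudyne and 15.7 to 18.4 CPM in vehicle samples. Most of that remainder was Flt3 and Zbtb46. Flt3 measured 6.54 to 9.375 CPM in Visudyne and 7.03 to 8.996 CPM in vehicle samples. Zbtb46 measured 6.88 to 8.96 CPM in Visudyne and 6.71 to 8.56 CPM in vehicle samples. Every other gene of the list, of which Xcr1 reached the highest value, measured at most 1.115 CPM in any sample. The sums therefore say little about those genes. Ccr7, which marks migrating dendritic cells, had at most 2 counts in any sample. The B cell marker sum, mostly Ighm, was 6.65 to 9.25 CPM in Visudyne and 6.62 to 10.3 CPM in vehicle samples. Cd3e, which defines T cells, had 0 or 1 count in every sample, and the T cell sum was 2.42 to 4.97 CPM in Visudyne and 2.52 to 3.45 CPM in vehicle samples. Brain endothelial markers summed to 102 to 137 CPM in Visudyne and 103 to 141 CPM in vehicle samples. All 9 markers of hippocampal neurons were tested, summing to 3018 to 3406 CPM in Visudyne and 3204 to 3505 CPM in vehicle samples.

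**Figure D4:**
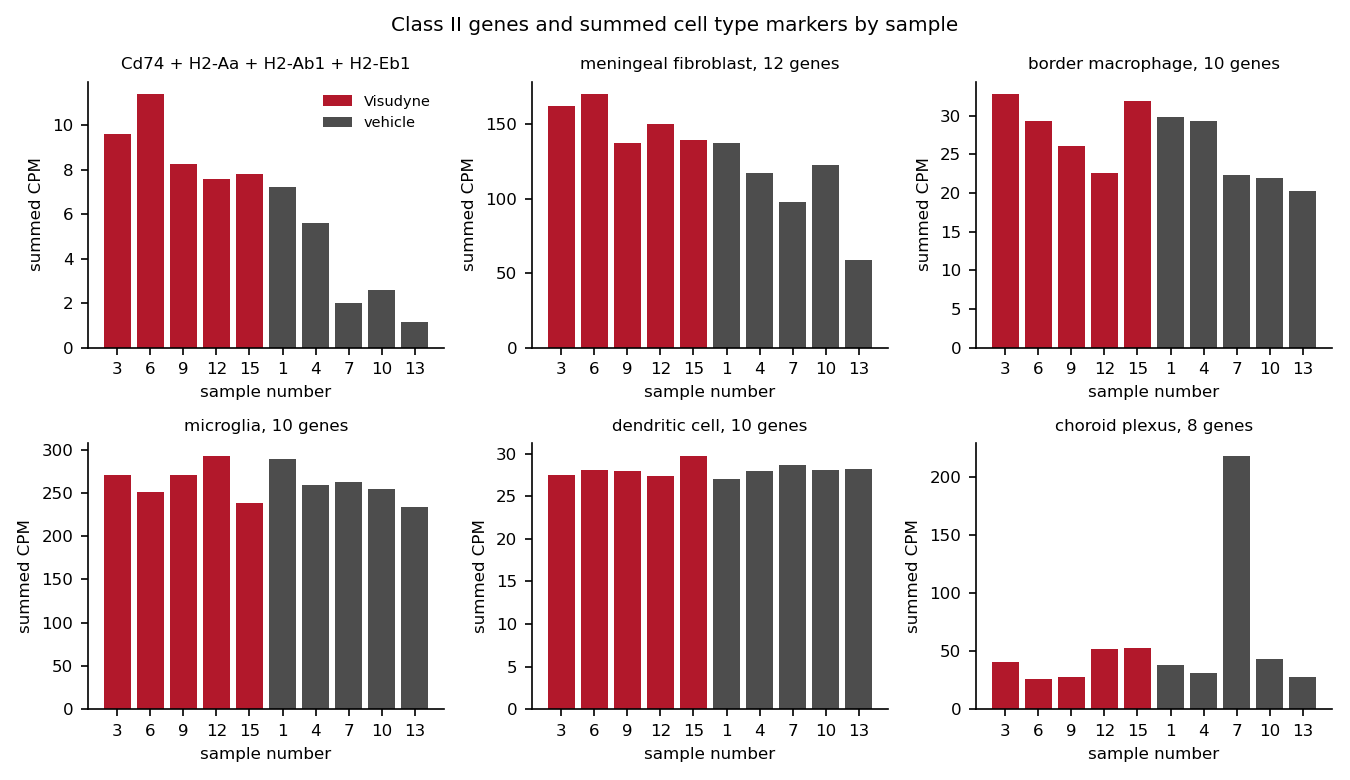
Summed CPM per sample (red Visudyne, grey vehicle, sample number on the x axis) of Cd74, H2-Aa, H2-Ab1 and H2-Eb1, and of 5 lists of cell type markers. Class II genes and fibroblast markers are lowest in vehicle 13, dendritic cell markers, which include the microglial gene Siglech, lie at 27.03 to 29.8, and vehicle 7 stands out in choroid plexus markers at 219.

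The genes whose pattern was most like that of the 4 class II genes were sought after each group's mean had been removed, so that the difference between treatments did not enter. The measure was Pearson's r of log2 CPM with the mean of the 4 genes over the 10 samples, and it rests mainly on the vehicle samples, which held 94.2% of the variation of that mean. Outside the lists the 8 nearest were Crispld2 (r = 0.950), a secreted glycoprotein gene, Gm2541 (0.940), the adhesion molecule Icam1 (0.927), the transglutaminase Tgm2 (0.926), the basement membrane gene Nid1 (0.921), Nupr1 (0.920), vitronectin (Vtn, 0.913) and Rai14 (0.912). They were picked as the highest of 19093, so r is a description without a test, and without vehicle 1 and vehicle 13 it was 0.707 to 0.980. Their log2 fold changes between treatments were -0.06 to 0.36, smaller than those of the 4 genes. Gm2541, a processed pseudogene, had 3, 8 and 0 counts in vehicle 7, 10 and 13, so its r rests partly on values near the floor.

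Within the lists, Col1a2 had r = 0.977, which was 0.950 without vehicle 1 and vehicle 13, the samples farthest from the median. The median r was 0.841 over the fibroblast markers, 0.654 over border macrophage markers, 0.621 over class I genes, 0.609 over brain endothelial markers, 0.52 over red blood cell markers, 0.346 over microglia markers, -0.05 over dendritic cell markers and -0.45 over hippocampal neuron markers, against 0.0044 over all genes tested. Among class I genes Psmb8 (0.920) and Tapbp (0.906) were nearest. Over all 10 samples r ran from 0.38 to 0.977 for fibroblast, -0.29 to 0.87 for border macrophage and 0.0674 to 0.92 for class I genes. Without vehicle 1 and vehicle 13 these ranges were -0.363 (Dcn) to 0.950, 0.0596 to 0.750 and 0.022 to 0.818. The list medians were not taken without those samples, so their order may rest partly on them. Ciita had -0.51, which was 0.02 without vehicle 1 and vehicle 13, so its value rests on those samples. These values share the same 10 libraries and carry no test.

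Other fits changed the standing of Cd74 and H2-Eb1. With the sample number from the titles as a covariate, edgeR called 19 genes higher (0.0995% of 19093), among them Cd74 (log2 fold change 1.82) and H2-Eb1 (1.44), each with an edgeR adjusted p of 0.0398. With limma voom and sample quality weights, 13 genes were called higher (0.0681%), among them Cd74 (1.90, adjusted p = 0.0462) and not H2-Eb1 (adjusted p = 0.23). Over all alternatives the adjusted p of each of these genes ran from 0.0398 to 1.0, with a log2 fold change of 1.17 to 1.90 for Cd74 and 1.03 to 1.44 for H2-Eb1. Library totals ran from 51165271 to 68895223 estimated counts, and their group means differed by less than the spread between samples (exact two-sided permutation p = 0.516, n = 5 each).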

How the data were processed

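RNA was extracted with the RNeasy mini kit and libraries were prepared with the TruSeq Stranded Total RNA kit, according to the labels' protocols. The deposited values are estimated counts for each Ensembl gene. FastQC, Salmon and mm10 are named in the submitters' processing notes, and no version, annotation or strand setting is given in the sources used here. All values were whole numbers and were used as deposited. Libraries held 51165271 to 68895223 counts, so genes of low level rest on few counts (3 in 1 sample for H2-Oa). Symbols, coordinates and exon lengths came from the GENCODE M21 annotation of mm10, which matched 28564 of 28871 identifiers. Each of the 45 pairs of libraries differed beyond sampling noise (chi-square statistics of 9.63 to 67.7 for each degree of freedom, 19053 genes).

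Groups followed the treatment label. Differences were tested with the quasi-likelihood method of edgeR (version 4.0.16, under R 4.3.3) after its default filter, which left 19093 genes, with TMM factors, no covariate and Benjamini-Hochberg adjustment at 0.05. SEs were derived from F, and log2 CPM used a prior count of 2. The procedure was tested on simulated data. Members, lists and tests were chosen with earlier results of these data known. Genes named are all members, the 3 of smallest p in each partner list, the genes between H2-Oa and H2-Eb1, and the 8 of highest likeness. A gene of a partner list and a marker gene are not reported here. Marker genes were named after their values were seen. As alternatives, the factors of DESeq2's method (RLE) or upper quartiles replaced TMM, the filter was dropped or set to 1 CPM in 5 samples, DESeq2 1.42.0 or limma 3.58.1 (voom, with and without quality weights) replaced edgeR, the sample number entered as covariate, and each sample was left out.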

Additional observations from a re-analysis of the deposited data

Results flagged for a closer look

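Among 40 sets of 5 samples screened (the 9 members and 11 sums of cell type markers in each group), 2 held a sample far from the others, as chance does in about 1 of 20 sets. No member was among them. The summed choroid plexus markers were 219 CPM in vehicle 7, where the next vehicle sample had 43.4 CPM. The summed red blood cell markers were 30.0 CPM in Visudyne 6, which was also highest in Cd74, H2-Aa, H2-Ab1 and H2-Eb1, where the next Visudyne sample had 9.25 CPM. Without Visudyne 6 the log2 fold changes were 1.29 for Cd74, 1.02 for H2-Aa, 1.10 for H2-Ab1 and 1.04 for H2-Eb1. Over the groups the choroid plexus sum was 26.2 to 52.8 CPM in Visudyne and 28.1 to 219 CPM in vehicle samples, and the red blood cell sum was 4.18 to 30.0 CPM in Visudyne and 5.56 to 18.1 CPM in vehicle samples. The part of blood or choroid plexus in the class II values was not tested.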

How the results depend on the processing

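The count of members called was 0 and became 2 with the sample number as covariate and 1 with limma voom and quality weights. It was 0 whichever sample was left out, as was that of partner genes in every alternative. Over all genes the count of 4 became 2 with upper-quartile factors, 19 with the sample number, 18 with DESeq2 and 13 with voom and quality weights. It was 0 to 5 when each sample was left out: 0 without Visudyne 3, Visudyne 6 or vehicle 7, 1 without Visudyne 9, 12 or 15 or vehicle 10 or 13, 4 without vehicle 4 and 5 without vehicle 1. The log2 fold change of H2-DMa changed sign with voom and quality weights (0.0128) and without vehicle 1 (0.0325), with a range of -0.0943 to 0.0325 when each sample was left out. That of H2-DMb2 changed sign without Visudyne 15 (-0.000765) and without vehicle 10 (-0.0198), with a range of -0.0198 to 0.19. The cause was not tested. Cd74, H2-Aa, H2-Ab1 and H2-Eb1 had positive fold changes in all alternatives in which they were fitted. Mean depth was 438001 to 5203070 counts higher in Visudyne samples when each sample was left out. H2-Ab1, H2-DMb1, H2-DMb2 and H2-Oa gave no value under the filter of 1 CPM, nor H2-Oa in some fits with a sample left out. No paired analysis was run, because the groups share no replicate number and the labels name no pairs.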

Other observations

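Several listed genes varied between samples with Ciita or against it, and those given here were picked after their values were seen. With each group's mean removed, its Pearson's r over the 10 samples was 0.963 with Cd40, 0.953 with Cd3d, 0.951 with Alas2, an erythroid gene of heme synthesis, and 0.910 with Ms4a7. It was -0.972 with Ctsb, -0.964 with Ctsl, -0.96 with Marchf8 and -0.931 with the neuronal gene Snap25. Other genes of the same marker lists did not follow these. For the red cell genes Hba-a1, Hba-a2, Hbb-bs and Hbb-bt r was -0.0751, -0.113, -0.0918 and 0.0331. T cell markers ran from -0.398 (Trbc2) to 0.953, and border macrophage markers from -0.663 (Lyve1) to 0.910. Hippocampal neuron markers ran from -0.931 to 0.821 (Zbtb20). No cell type is read from the picked genes, and these values carry no test. Cd3d measured 0.361 to 1.95 CPM in Visudyne and 0.511 to 1.32 CPM in vehicle samples, while Cd3e had at most 1 count in any sample. In Visudyne 15 Ciita, Cd40, Cd3d and Alas2 were each highest of all 10 samples, at 3.17, 2.68, 1.95 and 4.18 CPM.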
